A study of Mus musculus with 2 samples.

Results

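The genes of cholesterol and fatty acid synthesis were followed through the cell classes of the mouse hippocampus, in wild-type mice and in a transgenic mouse model of Alexander disease. The set holds 33 genes, chosen by symbol from the 32285 genes of the count matrices, and 33 of 33 were found in both matrices. It covers 7 mevalonate steps (Acat2, Hmgcs1, Mvk, Pmvk, Mvd, Idi1, Fdps), 3 steps from squalene to lanosterol (Fdft1, Sqle, Lss) and 8 from lanosterol to cholesterol (Cyp51, Tm7sf2, Msmo1, Nsdhl, Hsd17b7, Ebp, Sc5d, Dhcr7). A further 6 regulate the pathway or carry cholesterol (Srebf1, Srebf2, Scap, Insig1, Insig2, Stard4). Fatty acid synthesis is covered by 3 genes (Acly, Acaca, Fasn), and desaturation and elongation by 6 (Scd1, Scd2, Elovl5, Elovl6, Fads1, Fads2).

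Single-cell 3′ RNA sequencing was done on hippocampal cells freed with papain from mice aged 7 weeks. The WT group is C57BL6/J. The 60TM group is written in the labels as GFAP-hGFAP (60TM) on the C57BL6/J background, a transgene that carries human GFAP, the intermediate filament of astrocytes; no other allele or agent is listed for either group. Each group is 1 library that pools 3 mice, with no map from barcodes to mice, so differences between mice, dissections or libraries cannot be told apart from the genotype. The gene list of the matrices has no human GFAP row, and the sources used here do not say whether transgene reads fall in the mouse Gfap row.

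Cholesterol hardly crosses the blood-brain barrier, so the brain makes its own. Acetyl-CoA is built up through mevalonate to farnesyl pyrophosphate, joined to squalene, closed to lanosterol and trimmed step by step to cholesterol. The transcription factors SREBP2 and SREBP1, encoded by Srebf2 and Srebf1, turn these genes on: the escort protein SCAP carries them to the Golgi for cleavage when sterols are low, and the INSIG proteins hold them in the endoplasmic reticulum when sterols are plentiful. In the adult brain astrocytes are known as a main source of cholesterol for neurons, and cells of the oligodendrocyte lineage make large amounts for myelin.

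After filtering, 6086 WT cells (57439787 UMIs) and 7575 60TM cells (70839273 UMIs) were kept, with median depths of 7216 and 7502 UMIs. Cells were clustered without the 33 genes and without the other sterol, fatty acid and liver X receptor genes read further below. Clusters were named from fixed markers, so that each class name stands for cells like that type. The classes used most held 947 WT and 1938 60TM astrocytes, 95 and 165 oligodendrocyte precursor cells (OPCs), and 1375 and 752 oligodendrocytes. None of the 8 astrocyte markers was at 0 in the astrocyte class of either library. The libraries share 20 barcodes, of which 14 were kept. Levels are given as CPM, the UMIs of a gene per 1000000 UMIs of the class in that library, and a ratio is 60TM over WT. With 1 library per genotype there is no replicate error and no test; the 95% intervals are exact and cover counting error only. A gene is counted in a class when it has at least 100 UMIs over both libraries, and is called lower or higher at a ratio of at least 1.5-fold. Of all genes counted in astrocytes, 6.79% were called lower and 5.21% higher in 60TM.

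In astrocytes the sterol genes were lower in 60TM along almost the whole pathway, and the fatty acid genes were lower by less. All 33 genes were counted; 23 were called lower, 0 higher, and 31 had a ratio below 1. The median log2 ratio was -0.77 over the 33 genes and -0.08 over all genes counted. Summed over the 18 sterol steps, the level was 3881 (WT) and 1881 CPM (60TM), a ratio of 0.485 (0.476 to 0.493), or 24.5 and 14.6 UMIs per cell. Of these 18 genes 16 were called lower and 18 were below 1. The 9 fatty acid genes summed to 2646 and 1851 CPM, a ratio of 0.700 (0.686 to 0.713), with 5 called lower. At the stricter limit of 2-fold, 9 of the 33 genes were lower, beside 1.08% of all genes. Hsd17b7 at 0.658 lay just inside the 1.5-fold limit and Lss at 0.672 just outside it.

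**Figure D1:**
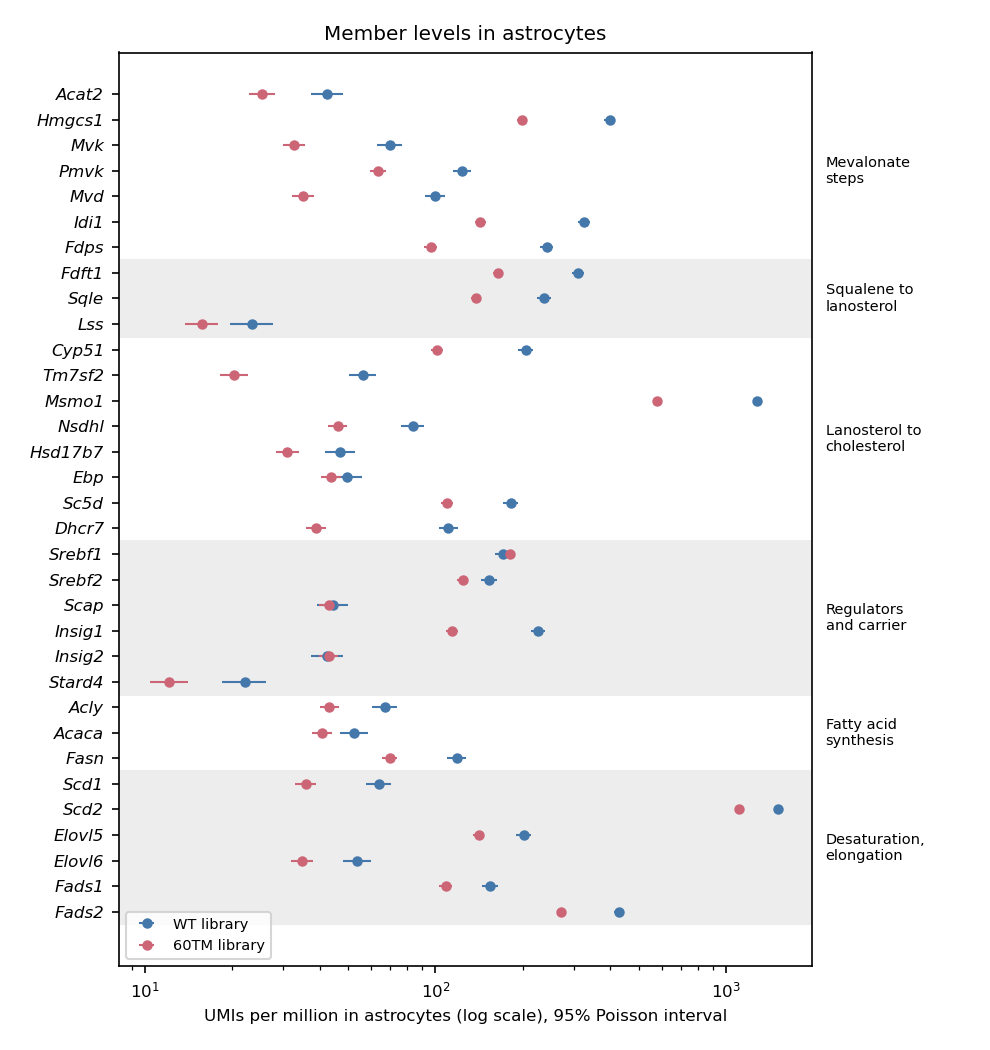
Level of each of the 33 genes (rows, in pathway order) in astrocytes, in CPM on a log x axis, for WT and 60TM; points are the class sums and bars the 95% counting intervals. The 60TM point lies left of the WT point for 31 of 33 genes, and Srebf1 and Insig2 are the exceptions.

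The stretches around annotated starts were read for 3 short motifs known from SREBP-driven promoters, on both strands. RefSeq windows (GRCm38.p6) of 300 bases, from 250 before to 50 after an annotated start, were at hand for 26 of the 33 genes. A gene with several starts was matched when any of its windows was. The sterol regulatory element TCACNCCAC was in 1 of 26 genes, Hmgcs1, and in 1.44% of the 27025 genes of the table. CCAAT, the box read by NF-Y, was in 21 of 26 genes (80.8%) beside 41.1% of all genes, and in 14 of the 15 sterol genes. GGGCGG, the Sp1 box, was also in 21 of 26 (80.8%) beside 38.2% of all genes; it was in 14 of 15 sterol genes and in 2 of 6 fatty acid genes. These matches are letters only, and a missing match says only that those letters are not in the window. Each printed 90-base stretch was picked within the 250 bases before a start for the most matches, sterol regulatory elements first. Its boxes were thus in part set by that choice. The stretches belong to genes whose astrocyte values are described next. Stretches picked in the same way for Lss and Elovl5 are not printed. That of Lss holds 0 NF-Y boxes and 2 Sp1 boxes, and that of Elovl5 holds 2 NF-Y boxes and 0 Sp1 boxes. They are written 5′ to 3′ on the gene's strand, with matches in capitals and overlapping matches run together. They lie at chr13:119690175-119690264 (Hmgcs1), chr8:122443478-122443567 (Mvd, minus strand), chr13:8885507-8885596 (Idi1), chr19:6067893-6067982 (Tm7sf2, minus strand), chr8:64733629-64733718 (Msmo1, minus strand), chr7:143830110-143830199 (Dhcr7), chr5:28071162-28071251 (Insig1), chr15:82147133-82147222 (Srebf2) and chr11:120824602-120824691 (Fasn, minus strand).
Hmgcs1: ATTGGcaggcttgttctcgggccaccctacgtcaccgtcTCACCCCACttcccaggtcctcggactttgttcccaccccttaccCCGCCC
Mvd: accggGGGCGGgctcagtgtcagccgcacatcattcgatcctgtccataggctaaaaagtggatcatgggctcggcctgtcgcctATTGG
Idi1: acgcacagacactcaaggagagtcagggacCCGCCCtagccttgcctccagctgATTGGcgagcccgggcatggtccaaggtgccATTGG
Tm7sf2: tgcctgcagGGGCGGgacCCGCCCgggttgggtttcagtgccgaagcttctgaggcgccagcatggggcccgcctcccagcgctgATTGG
Msmo1: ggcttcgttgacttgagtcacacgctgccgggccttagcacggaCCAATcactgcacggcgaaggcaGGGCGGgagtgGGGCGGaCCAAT
Dhcr7: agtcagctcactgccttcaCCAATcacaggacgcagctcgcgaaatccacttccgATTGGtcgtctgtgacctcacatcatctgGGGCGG
Insig1: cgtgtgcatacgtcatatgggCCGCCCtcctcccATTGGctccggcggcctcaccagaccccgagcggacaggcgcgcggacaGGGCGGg
Srebf2: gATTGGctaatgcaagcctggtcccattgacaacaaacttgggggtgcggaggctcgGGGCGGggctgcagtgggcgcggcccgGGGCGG
Fasn: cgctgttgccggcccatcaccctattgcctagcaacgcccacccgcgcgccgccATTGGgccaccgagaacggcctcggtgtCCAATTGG
The Hmgcs1 stretch holds all 3 motifs, with the sterol regulatory element flanked by an NF-Y box and an Sp1 box. The Idi1, Msmo1 and Dhcr7 stretches, picked for their matches, each hold a pair of NF-Y boxes. Dhcr7 has other annotated starts, and their windows (chr7:143822917-143823216 and chr7:143823149-143823448) hold 0 NF-Y boxes. The Dhcr7, Idi1, Msmo1 and Tm7sf2 stretches lie inside the annotated spans of their genes on GRCm38, and the Srebf2 stretch partly so.

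The mevalonate steps stood at 1299 (WT) and 593 CPM (60TM) astrocytes, a ratio of 0.457, with 7 of 7 called lower. Mvd, which decarboxylates mevalonate pyrophosphate to the first isoprene unit, had the lowest ratio of the branch: 99.7 (WT) and 35.0 CPM (60TM), a ratio of 0.351 (0.311 to 0.395). Fdps, which joins isoprene units to farnesyl pyrophosphate, was at 242 and 96.4 CPM (0.398, 0.370 to 0.429). Idi1, the isomerase between these enzymes, was at 324 and 143 CPM (0.440, 0.413 to 0.468). The entry to the branch was lower by a similar factor. Hmgcs1, which condenses acetyl units to HMG-CoA, was at 397 and 198 CPM (0.498, 0.472 to 0.526). The kinases Mvk (69.7 and 32.6 CPM, 0.468) and Pmvk (123 and 63.5 CPM, 0.515) lay in the same range, and Acat2, the cytosolic thiolase of the first step, was closest to 1 at 0.597 (0.508 to 0.703).

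From squalene to lanosterol the sum was 570 (WT) and 317 CPM (60TM), a ratio of 0.557, with 2 of 3 genes called lower. Fdft1, squalene synthase and the first enzyme committed to sterols, was at 310 and 164 CPM (0.528, 0.497 to 0.561). Sqle, the epoxidase that oxidises squalene, was at 237 and 138 CPM (0.583, 0.545 to 0.624). Lss, which closes the ring system, had 23.4 and 15.7 CPM, the lowest level of the branch, and its ratio of 0.672 (0.543 to 0.834) is not called.

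The late steps from lanosterol to cholesterol gave 2012 (WT) and 970 CPM (60TM), a ratio of 0.482, with 7 of 8 called lower. Dhcr7, the reductase of the last steps (chr7:143823145-143848410 on GRCm38, plus strand), was at 111 and 38.9 CPM (0.351, 0.314 to 0.393). Msmo1, the C4-methyl sterol oxidase (chr8:64718139-64733792, minus strand), carried the largest part of the branch: 1279 (WT) and 579 CPM (60TM), a ratio of 0.453 (0.439 to 0.467). Tm7sf2, a sterol reductase, was at 56.1 and 20.3 CPM (0.362, 0.309 to 0.423). Its annotated span overlaps Vps51 on the same strand, and the sources used here do not say how reads that fit both were counted. Cyp51, which takes off the C14 methyl group, was at 204 and 101 CPM (0.496, 0.460 to 0.535). Nsdhl at 0.553, Sc5d at 0.603 and Hsd17b7 at 0.658 were also called lower. The exception was Ebp, the sterol isomerase, at 49.8 (WT) and 43.8 CPM (60TM), whose interval includes 1 (0.879, 0.766 to 1.01). Ebp thus lay outside the range of the other 7 genes of its branch, which ran from 0.351 to 0.658.

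The regulators were mixed. Insig1, the sterol-sensing anchor whose own gene is a known SREBP target, was at 226 (WT) and 114 CPM (60TM) (0.506, 0.471 to 0.544). Stard4, a cytosolic cholesterol carrier, was at 22.1 and 12.1 CPM (0.550, 0.438 to 0.694). These were the 2 of 6 called lower. Srebf2, the main activator of sterol genes, was at 153 and 124 CPM (0.810, 0.748 to 0.877), below 1 but not past the limit; with equal weight for each astrocyte cluster it was at 1.0. Srebf1 was at 171 and 180.2 CPM (1.06, 0.982 to 1.14). Scap was at 44.4 and 43.1 CPM (0.970, 0.840 to 1.12), and scaling by TMM instead of the class total put it at 1.04. Insig2, the second anchor, was at 42.4 and 42.9 CPM (1.01, 0.873 to 1.17). The intervals of Srebf1, Scap and Insig2 all include 1, while that of Srebf2 lies below 1. The equal-weight value of Srebf2 has no interval and counts small clusters as much as large ones.

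Among the fatty acid genes the ratios lay closer to 1. The 3 genes of synthesis summed to 238 (WT) and 153 CPM (60TM), with 2 called lower. Fasn, fatty acid synthase, was at 118 and 69.6 CPM (0.587, 0.534 to 0.647). Acly, which makes cytosolic acetyl-CoA from citrate, was at 67.0 and 43.2 CPM (0.645, 0.568 to 0.732). Acaca, the carboxylase that makes malonyl-CoA, was at 52.6 and 40.7 CPM (0.773, 0.673 to 0.888) and is not called. Desaturation and elongation summed to 2408 and 1698 CPM, a ratio of 0.705, with 3 of 6 called lower. Scd1 (63.8 and 35.8 CPM, 0.561), Fads2 (429 and 271 CPM, 0.631) and Elovl6 (53.8 and 34.8 CPM, 0.647) are these 3: a delta-9 desaturase, the first desaturase of polyunsaturated fatty acids and an elongase of saturated chains. Scd2, the desaturase with the most UMIs of the set in astrocytes, was at 1506 and 1107 CPM (0.735, 0.716 to 0.754), and makes up most of the fatty acid sum. Elovl5 (201 and 141 CPM) and Fads1 (154 and 108 CPM), which act on polyunsaturated chains, both had a ratio of 0.702. With equal weight for each astrocyte cluster, small ones included, Fads1 was at 1.03. That value has no interval, so counting error in small clusters cannot be told apart from cluster make-up. Scd1 and Scd2 are neighbouring paralogs, and the counting of reads that fit both was not given in the sources used here.

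Both ratios moved with the weight given to each astrocyte cluster, the fatty acid ratio by more than the sterol ratio. The class is made of 4 clusters, with different ones holding most of it in each library: cluster 1, led by Agt, Slc6a11 and Slc7a10 (501 WT and 603 60TM cells), cluster 4, led by Tnc, Grin2c and Aqp4 (291 and 55), cluster 5, led by Lcn2, Mgst1, Thbs4 and Gfap (102 and 1055), and a shallow cluster 24 (53 and 225). The sterol sum was lower in 60TM inside each of them, at 0.539 (0.526 to 0.553) in cluster 1, 0.550 (0.505 to 0.597) in cluster 4, 0.572 (0.548 to 0.599) in cluster 5 and 0.418 (0.364 to 0.480) in cluster 24. The fatty acid sum was at 0.817 (0.794 to 0.841), 1.01 (0.944 to 1.09), 0.831 (0.788 to 0.877) and 0.745 (0.633 to 0.881) in the same order; TMM scaling put cluster 4 at 0.944. With equal weight for each cluster, an alternative chosen after seeing the data, the sterol ratio was 0.520 and the fatty acid ratio 0.864. In the whole class they were 0.485 and 0.700. The free RNA estimate for cluster 24 was 2.40% (WT) and 8.20% (60TM), and its part was not tested.

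Within cluster 1, where both libraries hold many cells, 19 of 33 genes were called lower and 0 higher, beside 2.59% of all genes lower; 15 of the 19 are among the 18 sterol steps. In cluster 4, 11 of 28 genes counted were lower and 2 higher (9.93% and 6.37% of all genes). The higher ones were Srebf1 at 1.78 (1.40 to 2.24) and Scd1 at 1.73 (1.07 to 2.70). In cluster 5, 12 of 33 were lower and 1 higher (8.47% and 15.7% of all genes), the higher one being Scap at 1.82 (1.14 to 3.10). Srebf1 was above 1 within clusters 1 and 5 as well, at 1.18 (1.07 to 1.31) and 1.31 (1.06 to 1.63). Thus Srebf1, whose class ratio of 1.06 includes 1, was higher than WT by more than counting error inside 3 clusters while the sterol sum there was lower.

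**Figure D2:**
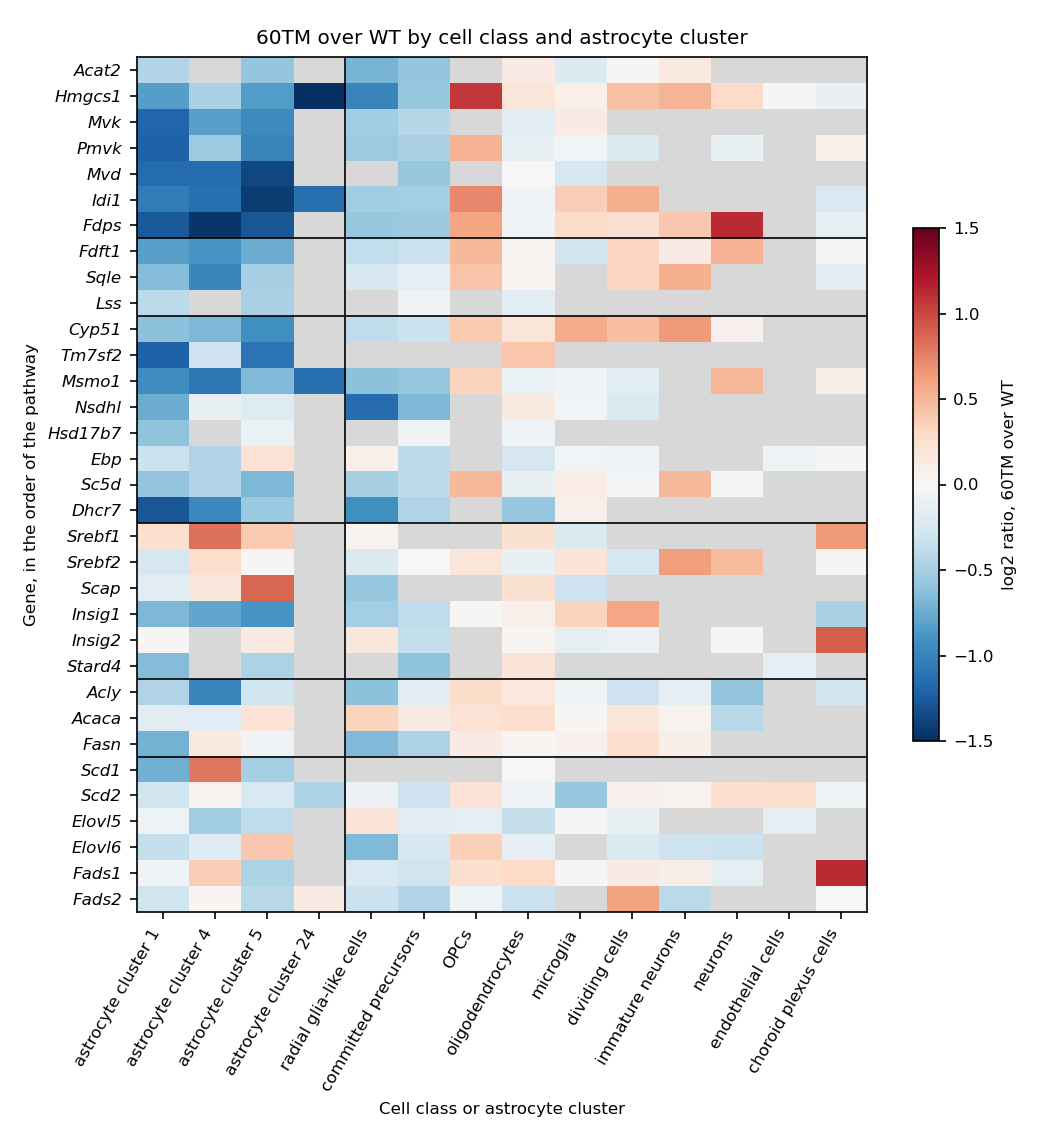
Heat map of the log2 ratio of 60TM over WT for each of the 33 genes (rows, ordered along the pathway) in the 4 astrocyte clusters and in other cell classes (columns); blue is lower and red higher in 60TM, and grey squares have too few UMIs to be counted. Blue fills the counted sterol rows of the astrocyte clusters, except Ebp in cluster 5, while the counted sterol squares of OPCs are red.

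Other measures moved with the astrocyte values, and their part in the result was not tested. Gfap was at 395 (WT) and 1233 CPM (60TM) astrocytes, and Lcn2 at 0 and 1156 CPM. The immediate early genes, which respond to tissue handling among other things, summed to 241 and 1087 CPM, with 6 of 6 counted genes higher. Inside cluster 1 that sum was 215 and 521 CPM. In OPCs it was 1302 and 1063 CPM, higher in WT than in 60TM. The 6 choroid plexus markers summed to 30.4 and 480 CPM in astrocytes, with 1 of the 6 at 0 in WT and none at 0 in 60TM. The markers of oligodendrocytes (398 and 403 CPM), of microglia (108 and 121 CPM) and of OPCs (20.2 and 20.7 CPM) were close between the libraries in the astrocyte class. Mitochondrial genes took 4.40% and 5.01% of astrocyte UMIs, and ribosomal protein genes 3.05% and 4.10%. Without mitochondrial and ribosomal genes in the total, the sterol ratio was 0.493.

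Cell by cell, the lower sterol level was spread over most 60TM astrocytes. Astrocytes with at least 2000 UMIs were thinned to that number, which kept 885 WT and 1756 60TM cells. The 18 sterol genes then gave a mean of 7.80 UMIs per cell in WT and 3.96 in 60TM, with medians of 7 and 3 and quartiles of 5 to 10 and 2 to 5. Of the WT astrocytes 47.8% were above the WT median of 7 UMIs, and of the 60TM astrocytes 12.4% were. Cells with none of these UMIs made up 1.02% in WT and 6.09% in 60TM. For the 9 fatty acid genes the means were 5.43 and 3.83 UMIs, with 42.9% and 21.6% of cells above the WT median of 5. The overlap of the libraries is therefore wider for fatty acid than for sterol genes.

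Of the single genes, Msmo1 and Dhcr7, both sterol genes called lower, were read as examples. After thinning, Msmo1 had a UMI in 83.6% of WT and 63.2% of 60TM astrocytes (93.2% and 83.7% before thinning). In microglia, which make little of it, the thinned shares were 5.84% and 5.57%. Dhcr7 had a UMI in 20.8% and 8.03% of thinned astrocytes (45.6% and 22.6% before thinning), beside 1.83% and 1.84% of microglia. Both astrocyte shares lay above the microglial level, which free RNA can give. Median depths before thinning were 6002 and 7130 UMIs in astrocytes and 5654 and 6877 in microglia.

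**Figure D3:**
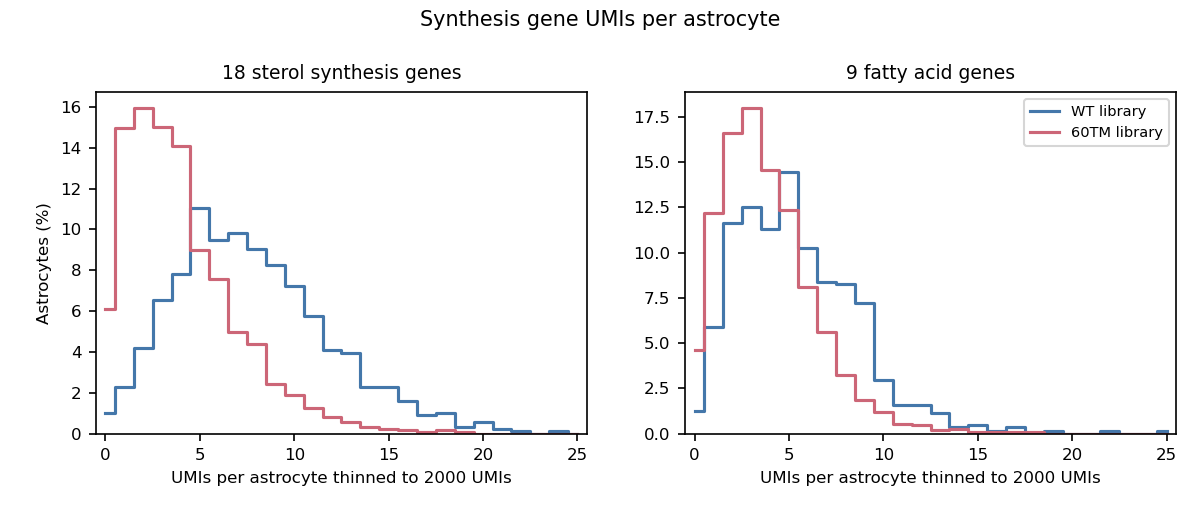
Share of astrocytes (y axis, percent) by the number of UMIs of the 18 sterol genes and of the 9 fatty acid genes in a cell thinned to 2000 UMIs (x axis), for WT and 60TM. The sterol curve of 60TM is centred on a median of 3 UMIs and that of WT on 7, and the fatty acid curves overlap more, with medians of 3 and 5.

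Astrocytes without Lcn2 were read on their own, since lipocalin 2 marks strongly reactive astrocytes. In 60TM 1525 astrocytes had no Lcn2 UMI and 413 (21.3%) had at least 1, of which 108 had a single one. In WT 0 of 947 had one. Cluster 5, led by Lcn2 and Gfap among others, held 1055 60TM cells, more than the 413 with an Lcn2 UMI. The Lcn2-negative group of 60TM therefore still holds many cells of that reactive cluster, of which WT held 102. Lcn2 UMIs were also found in 5.59% of 60TM oligodendrocytes, 4.85% of OPCs and 3.49% of microglia, so cells with 1 UMI cannot be told apart from free RNA. Lcn2-positive cells were deeper, with a median of 10215 UMIs against 6612 in the Lcn2-negative cells of 60TM.

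The sterol genes were lower in Lcn2-negative 60TM astrocytes too. Against WT astrocytes, 20 of 33 genes were called lower and 0 higher, beside 4.8% of all genes lower. The sterol sum was 3881 CPM in WT and 1954 CPM in these cells, a ratio of 0.504 (0.494 to 0.513), with 15 of 18 lower. The fatty acid sum had a ratio of 0.724 (0.709 to 0.739), with 3 of 9 lower. The leading genes were again Dhcr7 (0.350), Tm7sf2 (0.385), Mvd (0.389) and Fdps (0.392). Hmgcs1 at 0.526, Msmo1 at 0.479 and Insig1 at 0.538 were close to their values in the whole class. Acat2 (0.683), Fads2 (0.671, 0.637 to 0.708) and Elovl6 (0.708) were the genes called in the whole class and not here. Srebf1 was at 1.07 (0.993 to 1.16) and Srebf2 at 0.789. The immediate early genes summed to 971 CPM in these cells, and their part was not tested.

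Within the 60TM library the 2 groups of astrocytes differed little in these genes. Lcn2-positive over Lcn2-negative cells, the sterol sum was 1709 against 1954 CPM (0.874, 0.852 to 0.898) and the fatty acid sum 1702 against 1915 CPM (0.889). Of the 33 genes 1 was called lower, Acat2 at 0.581, and 0 higher, beside 8.73% of all genes lower. Scap (1.35) and Pmvk (1.26) were above 1, and Mvd was at 0.668, just short of the limit. Thinned cells gave sterol means of 4.05 and 3.64 UMIs in the Lcn2-negative and Lcn2-positive cells, against 7.80 in WT. The step from WT to Lcn2-negative cells was thus larger than the step from Lcn2-negative to Lcn2-positive cells. The first step also holds every difference between the libraries, while the second lies inside 1 library.

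OPCs, the dividing precursors of oligodendrocytes, went the other way in the mevalonate steps. Of the 33 genes 19 were counted; 0 were called lower and 3 higher, beside 1.82% and 1.73% of all genes. Hmgcs1 was at 93.3 (WT) and 195 CPM (60TM) (2.09, 1.58 to 2.80), from 64 and 230 UMIs. Idi1 was at 59.8 and 98.5 CPM (1.65, 1.14 to 2.41). Fdps was at 72.9 and 109 CPM (1.5, 1.08 to 2.13), at the limit itself. The 3 genes are all mevalonate enzymes, and each of them was called lower in astrocytes. With a minimum of 20 UMIs in place of 100, 5 sparser genes were also higher (Mvk, Mvd, Nsdhl, Stard4 and Scd1) and Tm7sf2 lower, so the restriction to mevalonate enzymes holds only for genes with enough UMIs. Under the stricter mitochondrial limit 1 gene was higher.

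Summed over the mevalonate steps OPCs had 356 (WT) and 607 CPM (60TM), a ratio of 1.70 (1.47 to 1.98). The sterol sum was 881 and 1283 CPM (1.46, 1.32 to 1.60). The steps from squalene to lanosterol had a ratio of 1.38 and those from lanosterol to cholesterol of 1.25 (1.07 to 1.46). The regulators were at 1.08 (0.911 to 1.29), with Insig1 at 1.01, and the fatty acid sum at 1.15 (1.05 to 1.25). The ratios were thus higher at the early than at the late steps and nearest to 1 in the regulators. The ratio in astrocytes divided by that in OPCs was 0.333 (0.302 to 0.366) for the sterol sum and 0.611 (0.560 to 0.667) for the fatty acid sum. OPCs are few, 95 and 165 cells, and Mvd (11 and 41 UMIs) was too sparse to be counted. Cell by cell the difference was smaller. In OPCs thinned to 2000 UMIs the sterol genes had a median of 2 UMIs in both libraries. Their means were 1.95 (WT) and 2.46 (60TM), and cells with none made up 13.2% and 17.2%. The free RNA estimate for OPCs was 1.42% (WT) and 3.93% (60TM), and its part was not tested. The class was higher in immediate early genes in WT, as given above, and the part of that in the result was not tested.

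**Figure D4:**
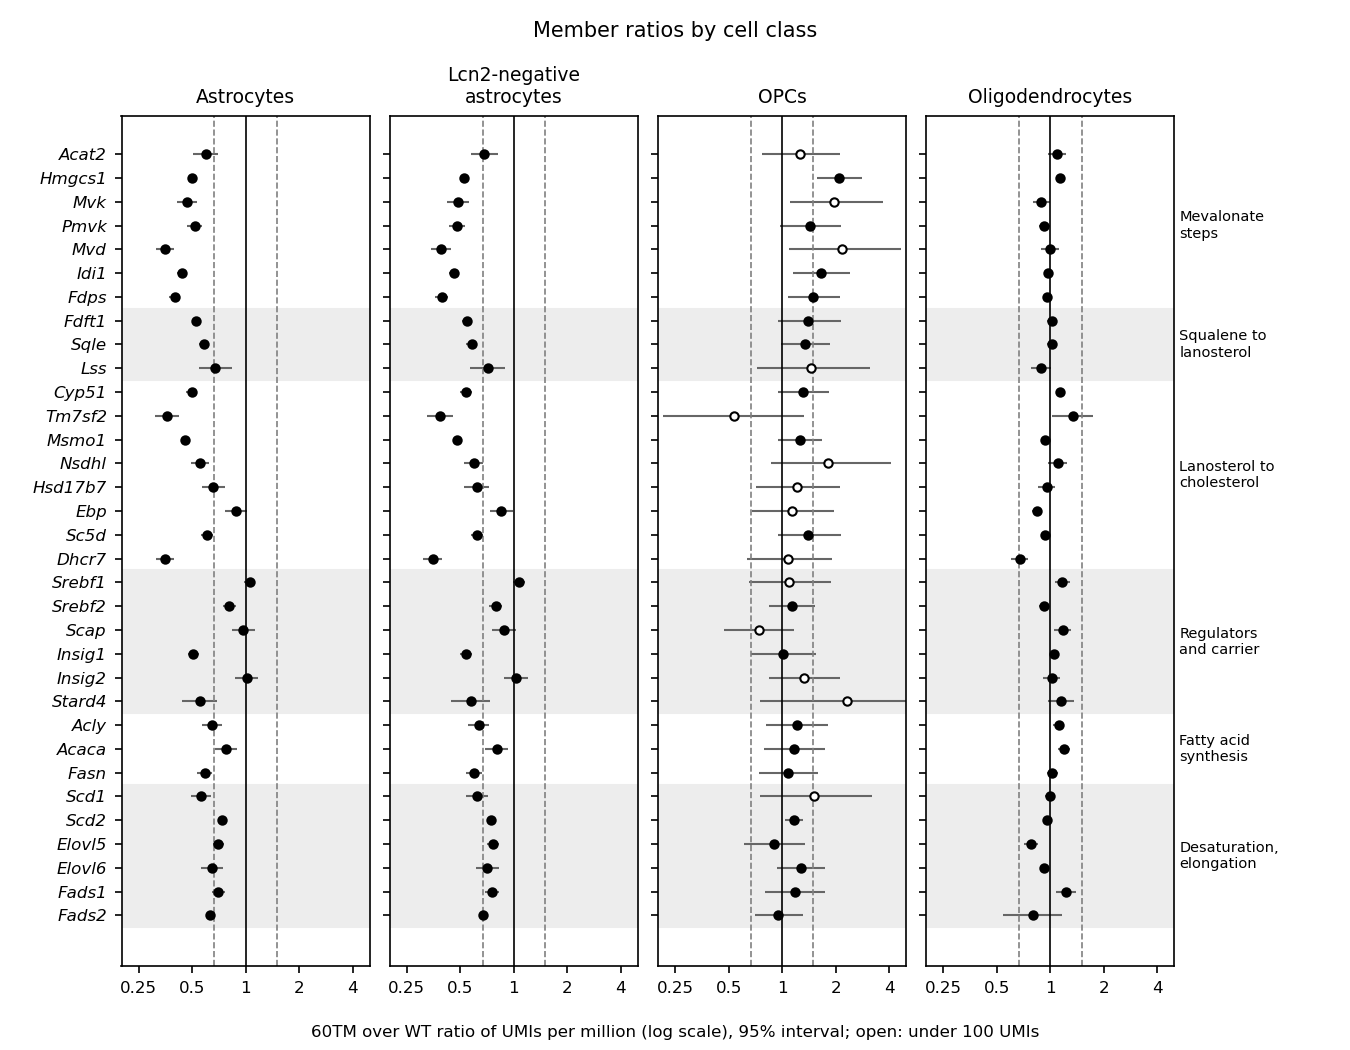
Ratio of 60TM over WT (log axis) for each gene in astrocytes, Lcn2-negative astrocytes, OPCs and oligodendrocytes, with 95% counting intervals; the solid line marks 1, the dashed lines 1.5-fold either way, and open points have under 100 UMIs. The sterol genes lie left of 1 in both astrocyte panels and between the dashed lines in oligodendrocytes, and Hmgcs1, Idi1 and Fdps lie at or past the 1.5-fold line in OPCs.

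Mature oligodendrocytes, the myelin-forming cells, had nearly the same levels in both libraries. All 33 genes were counted, and 0 were called lower or higher, beside 1.98% and 2.69% of all genes. The sterol sum was 2591 (WT) and 2629 CPM (60TM) (1.01, 1.0 to 1.03). With TMM scaling that ratio was 0.996, so its side of 1 depends on the scaling. The fatty acid sum was 3765 and 3651 CPM (0.970, 0.959 to 0.980). Dhcr7 came closest to being called, at 44.3 and 29.8 CPM (0.672, 0.598 to 0.753), and is called with TMM. Tm7sf2 was at 1.34 (1.03 to 1.74) on 131 and 107 UMIs, Fads1 at 1.23, Acaca at 1.20, Hmgcs1 at 1.13 and Elovl5 at 0.781. Divided by the oligodendrocyte ratio, the astrocyte ratio of the sterol sum was 0.477 (0.467 to 0.488) and that of the fatty acid sum 0.721.

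Between these stages, committed oligodendrocyte precursors (90 WT and 91 60TM cells), which are about to make myelin, had lower levels of nearly every gene by a small factor. Of 29 genes counted 28 were below 1, but only Nsdhl (0.626), a sterol dehydrogenase, and Stard4 (0.660) were called lower, beside 1.31% of all genes. The sterol sum was 4107 and 2993 CPM (0.729, 0.703 to 0.755) and the fatty acid ratio 0.809 (0.773 to 0.847). Hmgcs1 (0.677), Msmo1 (0.673) and Fdps (0.680) lay just short of the limit. Along the lineage the sterol ratio was therefore above 1 in OPCs, below 1 in committed precursors and close to 1 in oligodendrocytes, each stage from 1 library per genotype.

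Radial glia-like cells, the neural stem cells of the dentate gyrus, had the lowest sterol ratio after astrocytes. They also express Gfap, at 456 (WT) and 1099 CPM (60TM). Of 27 genes counted 8 were called lower and 0 higher, beside 4.22% of all genes lower. With TMM scaling 4 of these were called (Hmgcs1, Nsdhl, Dhcr7 and Acat2), and Msmo1, Fasn, Elovl6 and Acly were not. The sterol sum was 1979 and 1295 CPM (0.655, 0.622 to 0.689). Hmgcs1 was at 402 and 203 CPM (0.504, 0.447 to 0.569), as low relative to WT as in astrocytes. Nsdhl (0.454), Dhcr7 (0.527), Acat2 (0.615), Msmo1 (0.653), Fasn (0.632), Elovl6 (0.631) and Acly (0.650) were the other genes called in CPM. Srebf1 was at 1.04. The fatty acid ratio was 0.902 (0.857 to 0.950), and 0.972 with TMM scaling, which moved the median of all genes by 0.11 in log2. Divided by the ratio in radial glia-like cells, the astrocyte ratio of the sterol sum was 0.740 (0.701 to 0.781). The immediate early genes summed to 571 and 1088 CPM in this class, and their part was not tested.

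In the other classes few of the 33 genes were past the limit. Microglia had low levels, with a sterol sum of 263 (WT) and 272 CPM (60TM), and 0 of 25 counted genes were called lower or higher (2.17% and 2.48% of all genes). Scd2 at 0.676 (0.619 to 0.737) and Cyp51 at 1.47 (1.22 to 1.79) lay nearest to the limit there, and Cyp51 is past it with TMM. In neurons 1 of 14 was higher, Fdps at 2.18 (1.49 to 3.24), from 37 and 120 UMIs (4.33% of all genes higher). The free RNA estimate for neurons was 3.62% (WT) and 9.68% (60TM), and its part was not tested. In immature neurons 2 of 15 were higher, Cyp51 at 1.56 (1.16 to 2.11) and Srebf2 at 1.55 (1.11 to 2.18), beside 1.36% of all genes. Both are sterol genes or regulators of them, as was Fdps in Cajal-Retzius cells at 1.67 (1.11 to 2.5), 1 of 6 counted, beside 1.83% of all genes higher. In dividing cells 1 of 23 was higher, Fads2 at 1.52 (1.18 to 1.98), beside 3.63%. In choroid plexus cells 3 of 16 were higher, beside 9.94% of all genes: Fads1 at 2.17 (1.35 to 3.68), Insig2 at 1.88 (1.29 to 2.82) and Srebf1 at 1.56, whose interval includes 1 (0.994 to 2.55). None of the 33 genes was called in endothelial cells, where 5 were counted, and none could be counted in border macrophages.

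With the lower astrocyte levels, the classes ranked differently in 60TM. In WT astrocytes the sterol sum of 3881 CPM was 4.41-fold that of OPCs (4.06 to 4.78) and 1.5-fold that of oligodendrocytes (1.48 to 1.52). In 60TM it was 1.47-fold that of OPCs (1.39 to 1.54) and 0.715 of that of oligodendrocytes (0.704 to 0.726). The order of astrocytes and oligodendrocytes in sterol gene level was thus turned around between the libraries. TMM scaling across classes moved the median of all genes by 0.65 in log2 for WT astrocytes over OPCs and by -0.39 for WT astrocytes over oligodendrocytes. Under it the sterol sum of astrocytes was 6.92-fold that of OPCs in WT and 2.34-fold in 60TM. The values against oligodendrocytes were 1.14 in WT and 0.611 in 60TM, on the same sides of 1. The fatty acid sum of astrocytes was below that of oligodendrocytes in both libraries, at 0.703 in WT and 0.507 in 60TM.

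Gene by gene, 23 of 33 were higher in WT astrocytes than in WT OPCs and 1 lower, beside 19.2% and 41.4% of all genes. Msmo1 was 12-fold higher (9.54 to 15.3), Mvd 6.22-fold and Fdft1 5.90-fold, and the lower gene was Elovl6 at 0.595. In 60TM 9 were higher and 5 lower (18.1% and 44.3% of all genes). These counts turn on the scaling: with TMM 30 were higher and 0 lower in WT, and 22 higher and 1 lower, Elovl6, in 60TM. Against oligodendrocytes, 13 were higher and 5 lower in WT (33% and 26.1% of all genes). Fads2, at 429 CPM in astrocytes and 3.89 CPM in oligodendrocytes, was 110-fold higher, Tm7sf2 9.92-fold and Fads1 6.35-fold. The 5 lower genes were Elovl6 (0.315), Ebp (0.375), Scd2 (0.479), Scd1 (0.563) and Hmgcs1 (0.588). In 60TM 6 were higher and 12 lower than in oligodendrocytes (34.1% and 25.2% of all genes). With TMM the counts against oligodendrocytes were 11 higher and 9 lower in WT, and 6 higher and 17 lower in 60TM.

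Across the 13 classes that held at least 50 cells of both libraries, the sterol sum in CPM was highest in committed oligodendrocyte precursors in both libraries. That rank turns on the scaling: with TMM, astrocytes were first in WT, at 1.13-fold the level of committed precursors, and oligodendrocytes were first in 60TM. In CPM astrocytes had the highest level of 12 of the 33 genes in WT and of 9 in 60TM. Committed precursors were highest for 12 and 11 genes, and oligodendrocytes for 5 and 10. With TMM these counts were 15 and 10 for astrocytes, 7 and 6 for committed precursors and 9 and 15 for oligodendrocytes. Msmo1 stayed highest in astrocytes, at 1279 CPM in WT against 575 CPM in committed precursors, and at 579 against 387 CPM in 60TM. Srebf1 was also highest in astrocytes in both libraries, at 171 and 180.2 CPM, with radial glia-like cells next at 83.8 and 87.2 CPM. Dhcr7 was highest in WT astrocytes at 111 CPM, while in 60TM committed precursors (40.8 CPM) and astrocytes (38.9 CPM) did not differ beyond counting error; with TMM astrocytes were first in both. Insig1 was highest in astrocytes in WT and in oligodendrocytes, at 174 CPM, in 60TM. Scd2 was highest in oligodendrocytes in both (3143 and 3027 CPM), Stard4 in endothelial cells (73.5 and 67.0 CPM) and Acaca in immature neurons (89 and 92 CPM). For Acaca oligodendrocytes came first with TMM, while the other classes named for these genes kept their place.

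**Figure D5:**
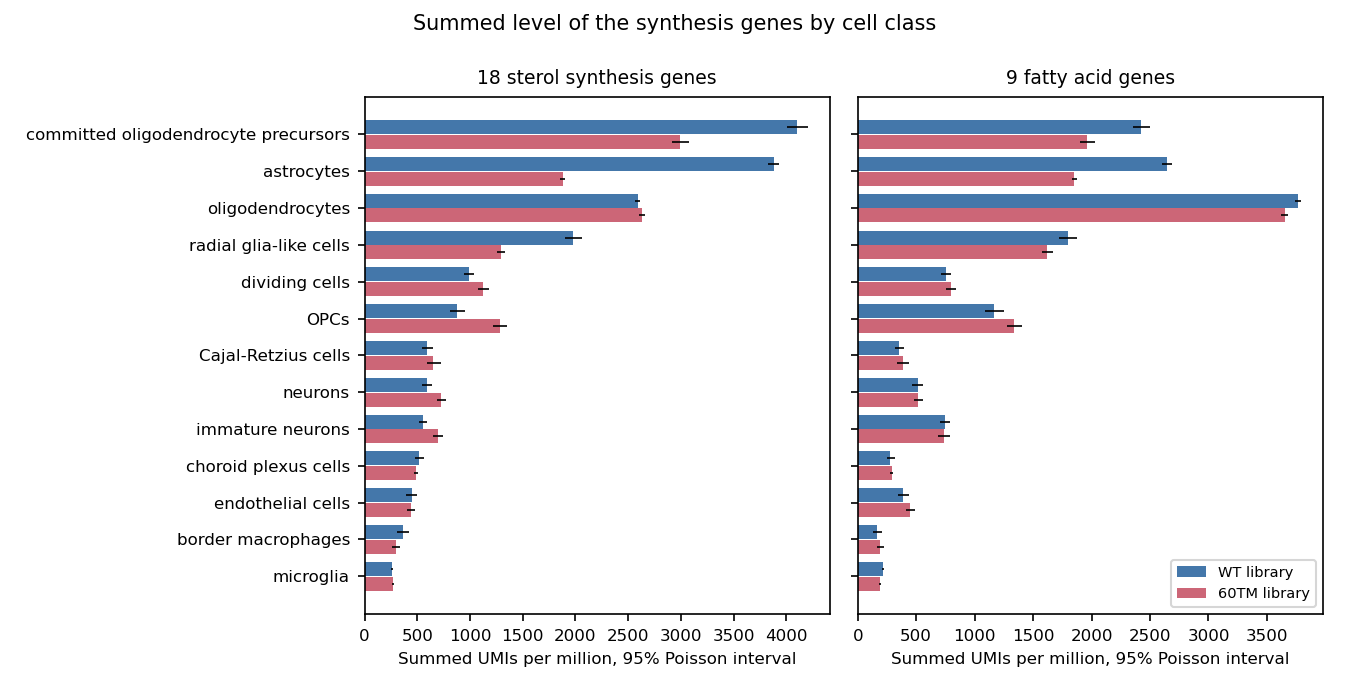
Summed level (CPM) of the 18 sterol genes and of the 9 fatty acid genes in each of the 13 cell classes, WT and 60TM, with 95% counting intervals. The astrocyte sterol bar is longer than the oligodendrocyte bar in WT (3881 and 2591 CPM) and shorter in 60TM (1881 and 2629 CPM).

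Other genes of the same pathways, kept as separate lists, were read in astrocytes in the same way. Of 12 other sterol genes counted 2 were lower: Aacs, which activates acetoacetate for lipid synthesis (23.7 and 11.8 CPM, 0.498), and Cyp46a1, the 24-hydroxylase that turns over brain cholesterol (39.4 and 20.2 CPM, 0.513). Npc1, which exports cholesterol from lysosomes, was next at 0.720. Erlin1 (1.22), Ggps1 (1.03) and Mbtps2 (1.02) were highest. Of 21 other fatty acid genes 3 were lower, namely Elovl4 (0.518), Acss2 (127 and 66.4 CPM, 0.523), which makes acetyl-CoA from acetate, and Acsl6 (719 and 476 CPM, 0.662), an acyl-CoA synthetase. Acsl5 was higher at 4.06 (2.05 to 9.16) on 9 and 92 UMIs, and Mlxipl and Hacd1 were both at 1.23. Of the liver X receptor genes, which answer to excess sterol, 4 were counted and 0 called: the cholesterol exporter Abca1 was at 125 and 175 CPM (1.40, 1.29 to 1.52), Lpcat3 at 0.833, Nr1h2 at 0.884 and Nr1h3 at 0.890. Abca1 was thus above 1 by more than counting error, while Lpcat3 was below 1 by more than counting error (0.756 to 0.918). The genes of this list did not move in a single direction, and what sets their levels was not tested.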

How the data were processed

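Single-cell 3′ RNA-seq (v3 chemistry) was run on 1 library of pooled hippocampi per genotype. The deposited matrices hold raw UMI counts per gene and barcode; the authors used Cell Ranger 5.0.0 and the build GRCm38, per the submitters' processing notes, with 63967 (WT) and 54044 (60TM) reads per cell per the labels. The barcode and gene tables only name columns and rows, and 0 columns lacked a sample.

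Barcodes with under 500 genes (264 WT, 338 60TM), over 15% mitochondrial UMIs (232, 384) or a doublet score (Scrublet in scanpy 1.11.5) in the top 0.8% per 1000 barcodes (377, 610) were removed, since the caller's own limit marked 235 and 317. Both libraries were clustered together into 31 clusters (2000 variable genes, 30 principal components, 15 neighbours, Leiden resolution 1). The 33 genes and the separate lists of other sterol, other fatty acid and liver X receptor genes were left out. Clusters were named from 22 marker classes (135 genes). UMIs were summed per class and library and scaled to the class total. Intervals are exact (conditional binomial for ratios), at 95%; UMIs remove PCR copies, but the intervals cover counting error only. The ratio code was tested on simulated counts. TMM factors came from edgeR 4.0.16 in R 4.3.3.

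The 33 genes and all lists were chosen with earlier results of these data known. Genes named in full are the up to 4 per branch with at least 100 astrocyte UMIs whose interval lies farthest from 1, every regulator, genes past 1.5-fold in other classes, and the 3 highest and 3 lowest of each other list; others are named beside them as examples chosen after their values were seen. GENCODE M21 matched 32158 of 32285 gene IDs and 33 of 33 of the set; 7 of the 33 overlap a gene on the other strand, with a strand setting not given in the sources used here.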

Additional observations from a re-analysis of the deposited data

Results flagged for a closer look

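In several classes a gene was at least 1.5-fold higher in 60TM while the same gene was at least 1.5-fold lower in 60TM astrocytes; with 1 library per genotype the difference was not tested. Fdps, at 0.398 in astrocytes, was at 2.18 in neurons, 1.67 in Cajal-Retzius cells and 1.5 in OPCs. Hmgcs1, at 0.498 in astrocytes, was at 2.09 in OPCs. Idi1, at 0.440 in astrocytes, was at 1.65 in OPCs. Cyp51, at 0.496 in astrocytes, was at 1.56 in immature neurons. Fads2, at 0.631 in astrocytes, was at 1.52 in dividing cells. These are few of the genes of the set counted in each class, as given above. Of all genes counted, 4.33% were called higher in neurons and 3.63% in dividing cells. The shares were 1.83% in Cajal-Retzius cells, 1.73% in OPCs and 1.36% in immature neurons. The free RNA estimate for neurons differed between the libraries, as given above.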

How the results depend on the processing

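No paired analysis was possible because each genotype has 1 library, and no replicate could be left out. In astrocytes 9 genes were lower at a 2-fold limit and 18 to 23 under the other alternatives; in Lcn2-negative astrocytes the counts were 8 and 19 to 22. In OPCs 1 gene (Tm7sf2) was lower and 8 higher with a minimum of 20 UMIs; the higher count was 0 thinned, where 1 gene could be counted, and 1 to 4 under the rest. The further alternatives given here for other classes and between classes were chosen after seeing the data. With that minimum 4 genes were lower in committed precursors, and 2 were higher in neurons, 5 in immature neurons, 4 in dividing cells, 5 in Cajal-Retzius cells and 1 in microglia. With TMM 4 were lower in radial glia-like cells and 1 higher in microglia. For astrocytes over OPCs TMM gave 22 higher and 1 lower in 60TM and 0 lower in WT, and for WT astrocytes over oligodendrocytes 9 lower. In oligodendrocytes 1 was lower under the stricter mitochondrial limit, thinning, TMM scaling and free RNA subtraction. The sterol ratio in astrocytes was 0.508 with stricter cell filters, 0.508 thinned, 0.496 as a mean over cells, 0.518 with TMM, 0.493 without mitochondrial and ribosomal genes and 0.520 with equal cluster weights. The fatty acid ratio was 0.731 without doublet removal, 0.732 with stricter filters, 0.682 as a mean over cells, 0.748 with TMM and 0.864 with equal weights. Among ratios whose interval excludes 1, those that changed side were, in astrocytes with equal weights, Srebf2 (1.0) and Fads1 (1.03), and in oligodendrocytes Pmvk (1.01) and Elovl6 (1.01) without doublet removal, and Fdps (1.08) and Tm7sf2 (0.122) after thinning. Of the single-gene values 1108 stayed within their interval, 99 moved outside it on the same side of 1 or from an interval that includes 1, and these 6 changed side; the cause was not tested. Of the sums, that of the sterol genes in oligodendrocytes (0.996) and, for astrocytes over committed oligodendrocyte precursors, that of the sterol genes in WT (1.13) and of the fatty acid genes in 60TM (1.22, from 0.943) changed side with TMM. The planned run without an astrocyte cluster found in 1 library could not be made, since none exists. Depth limits the small classes: 0 of the 33 genes could be counted in border macrophages, 5 in endothelial cells, 6 in Cajal-Retzius cells, 14 in neurons and 19 in OPCs.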
